A study of Homo sapiens with 10 samples.

Results

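The proteases that cut the extracellular matrix and cell-surface proteins, and the inhibitors that hold them in check, were followed through lung cancer cells that survived chemotherapy or grew as spheres. The genes were the 71 protein-coding genes whose symbols begin with MMP, ADAM, ADAMTS or TIMP and a number, together with PLAU, PLAUR and PLAT, of 19672 protein-coding genes and 46427 genes listed. They comprised 23 matrix metalloproteinases (MMPs), 20 ADAMs, 19 ADAMTS genes, 4 tissue inhibitors of metalloproteinases (TIMPs) and the 3 plasminogen activation genes. The symbol rule also took in MMP24OS and MMP24-AS1-EDEM2, whose values are given apart because they overlap MMP24 in the RefSeq annotation. Reads of the shared stretches may not be told apart, as their treatment is not given. Both loci are counted among the 71 genes and in the counts below.

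MMPs are secreted or membrane-bound zinc enzymes that are made as inactive precursors and together can degrade collagens, gelatin, laminin and proteoglycans. ADAMs are mostly membrane proteins, and the active ones cut the outer parts of receptors, ligands and adhesion proteins from the cell surface, while ADAMTS enzymes are secreted and act on proteoglycans, procollagens and von Willebrand factor. TIMPs bind the active sites of these enzymes, and the plasminogen activators PLAU (urokinase) and PLAT (tissue type) convert plasminogen to plasmin, a serine protease that can activate some MMP precursors.

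Poly(A) RNA was sequenced in 10 libraries from 2 established human lung cancer cell lines, H460 and A549. H460 cells were grown as 2D cultures (parental, 3 libraries) or were the cells left alive after treatment with cisplatin (CR, 1 library), paclitaxel (PR, 2 libraries) or doxorubicin (DR, 1 library). Sphere cultures, which the labels name CTC and which were taken as the tumor spheroid (TS) cells of the study, had 1 library in H460 and 1 in A549, and A549 2D cells had 1 library. Drug-resistant cells here were survivors of a short treatment that attached again after re-plating, and TS cells were passaged on a surface to which cells do not attach and in a medium of their own, so that suspension and medium cannot be told apart.

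The total read count lay between 59499787 and 89541774 per library. The keratins KRT8, KRT18 and KRT19 were at an FPKM of at least 3.57 in every library, whereas the epithelial genes EPCAM and CDH1 were at or below 0.11 in all H460 libraries, and the 5 alveolar type II markers summed to at most 0.53 in any library. Of the blood and endothelial markers, PTPRC, PECAM1 and CDH5 were at or below 0.16 throughout, and only CD68 was well detected, with 15.0, 16.7 and 16.9 in the parental libraries and 57.9 after cisplatin, 30.7 and 44.2 after paclitaxel and 46.5 after doxorubicin. The summed fibroblast markers reached 28.3 in H460 TS cells, nearly all from LUM at 26.6, against 1.10 to 13.0 in the other H460 libraries. The part of these markers in the results below was not tested, and in bulk RNA fewer cells of a kind and less RNA per cell cannot be told apart. Levels are given as FPKM, that is, reads scaled for transcript length and library size, which allows genes to be set side by side within a library. Nothing in the labels says that the replicates were separate cultures, so p-values measure only the spread between these libraries.

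A set of 9 MMP genes stood side by side. MMP7, MMP20, MMP27, MMP8, MMP10, MMP1, MMP3, MMP12 and MMP13 lay in this order within 435225 bases of chromosome 11, at chr11:102520508-102955732 of GRCh38.p14. Several MMP promoters are textbook targets of AP-1, the dimer of FOS and JUN proteins, whose site is TGANTCA (N is any base, and the complement reads the same). Of the 71 genes, 43 matched RefSeq promoters of GRCh38.p14 and had 45 promoter entries. MMP1, MMP2, MMP3, MMP9, MMP12, MMP13, PLAT and TIMP2 were among those with no entry, so their promoters were not searched. In the 250 bases before the start, the motif was present in 5 of the 45 entries (11.1%), against 6.573% of all 35116 entries. The 5 genes were MMP10, MMP7, MMP20, ADAMTS12 and PLAUR. The last 200 bases before the start are shown for 3 genes of the chromosome 11 cluster and for PLAUR, the urokinase receptor, to compare where the motif, in capitals, stands. MMP10 covers chr11:102780629-102780828, MMP7 chr11:102530748-102530947, MMP20 chr11:102625333-102625532 and PLAUR chr19:43670170-43670369, all on the minus strand and written 5′ to 3′.
MMP10: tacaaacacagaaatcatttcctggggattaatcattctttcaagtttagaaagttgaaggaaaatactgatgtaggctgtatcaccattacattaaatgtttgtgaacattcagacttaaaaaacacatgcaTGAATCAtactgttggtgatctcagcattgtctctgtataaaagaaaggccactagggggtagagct
MMP7: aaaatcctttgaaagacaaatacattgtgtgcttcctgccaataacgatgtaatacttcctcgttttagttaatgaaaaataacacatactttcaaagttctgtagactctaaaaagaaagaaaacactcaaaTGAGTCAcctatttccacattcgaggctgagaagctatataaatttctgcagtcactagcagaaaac
MMP20: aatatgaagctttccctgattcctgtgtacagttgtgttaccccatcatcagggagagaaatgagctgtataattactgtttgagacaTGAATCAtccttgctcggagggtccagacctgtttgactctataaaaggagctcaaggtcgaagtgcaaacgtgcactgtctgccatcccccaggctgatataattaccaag
PLAUR: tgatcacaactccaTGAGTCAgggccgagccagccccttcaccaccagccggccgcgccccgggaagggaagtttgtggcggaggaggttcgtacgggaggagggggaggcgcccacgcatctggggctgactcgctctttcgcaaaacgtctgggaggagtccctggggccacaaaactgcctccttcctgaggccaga
In MMP10 and in MMP7 the motif ended 61 bases before the start, in MMP20 it ended 106 bases before it, and in PLAUR it ended 180 bases before it. The letters TATAAA were present in 10.7% of all promoter entries and in 7 of the 45, among them MMP10, and the ETS motif AGGAAG in 28.7% and in 11, each searched on both strands. A match in this window is a description of the sequence and not a measured binding site, and these promoters are set beside the levels below only as positions. MMP10 and MMP7 rose in drug-resistant cells, whereas MMP20 (log2 fold change 0.72 ± 0.59, adjusted p = 0.37, edgeR) and PLAUR (0.43 ± 0.22, adjusted p = 0.155) did not pass the test and ADAMTS12 fell.

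Expression was concentrated in few of the genes. In all 10 libraries 18 of the 71 genes stayed below an FPKM of 0.1, and a further 15 stayed below 1. An FPKM of 1 or more in any library was reached by 38 genes, of at least 10 by 19 and of at least 100 by 5. The number of genes at or above 1 was 21 in each parental library, 23 for CR, 27 and 28 for PR and 25 for DR cells, 16 in H460 TS cells, and 24 and 22 in A549 2D and TS cells. Among the genes near 0 throughout were the collagenases MMP8 and MMP13, the stromelysin MMP3, and ADAM2, ADAM7, ADAM18, ADAM29 and ADAM30. MMP13, for example, had a count of 4 in DR cells and 0 in the other 9 libraries, and MMP3 had counts of 11 and 3 in PR and 2 in DR cells and 0 elsewhere.

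**Figure D1:**
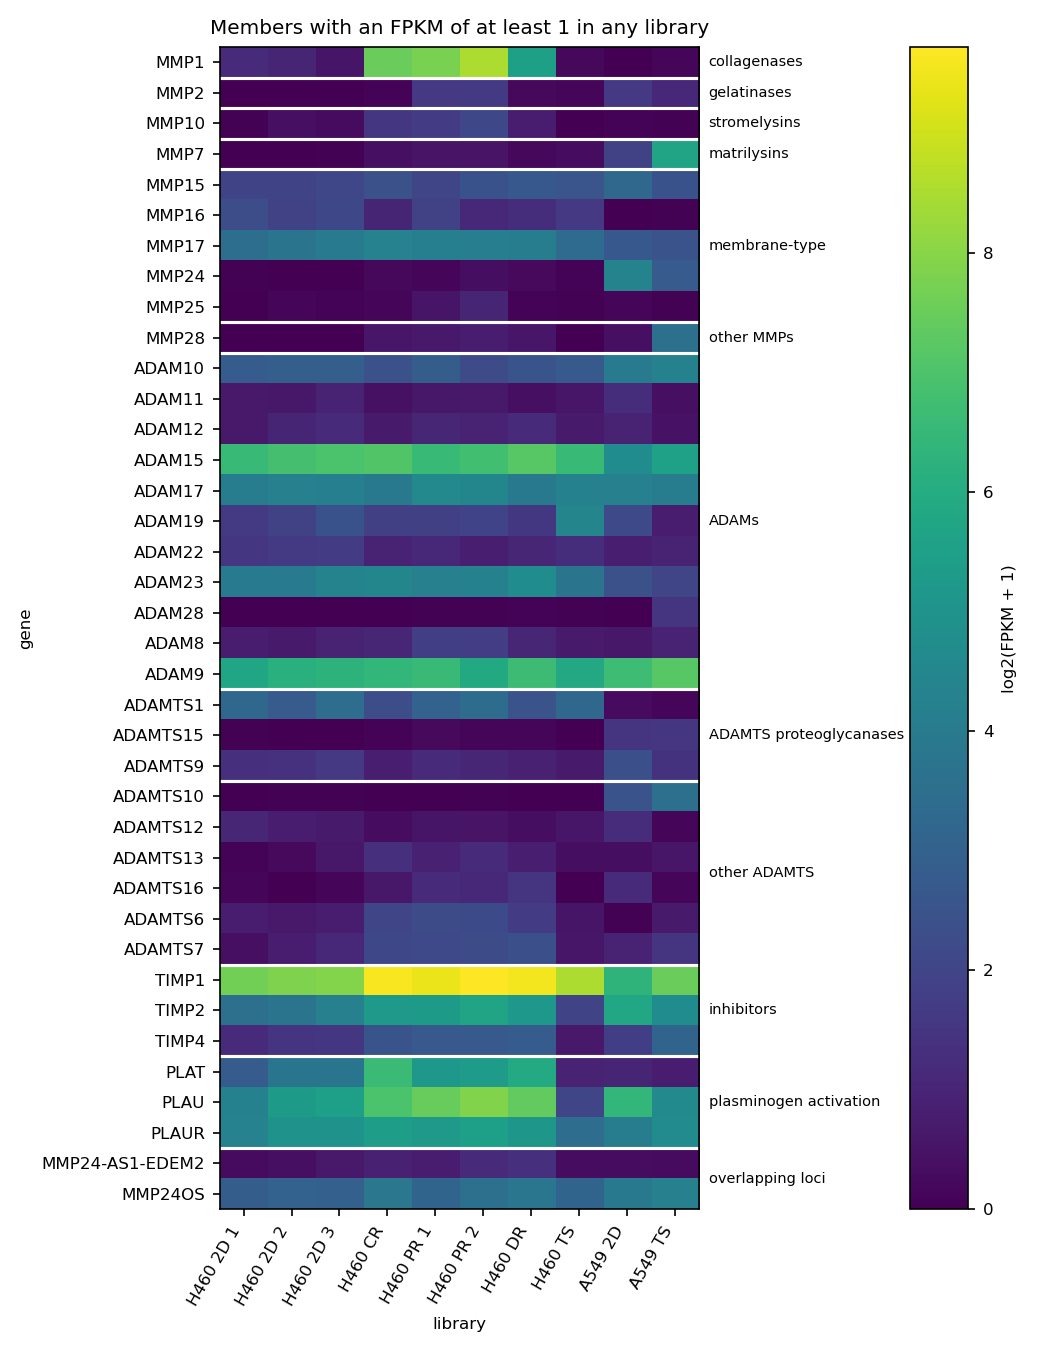
Heat map of log2(FPKM + 1) for the genes with an FPKM of 1 or more in at least 1 library (rows, grouped by role) in the 10 libraries (columns). TIMP1, ADAM15 and ADAM9 were high in most libraries, MMP1 was high in the 4 drug-resistant libraries, and MMP7, MMP24, MMP28 and ADAMTS10 reached 10 or more in A549 libraries only.

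In drug-resistant H460 cells the collagenase MMP1, both plasminogen activators and 3 of the 4 TIMPs were several-fold higher than in parental cells, whereas the sheddases ADAM9, ADAM15 and ADAM17 overlapped between the groups. The question was which of these genes differ in cells that survive the drugs. The 4 drug-resistant libraries were compared with the 3 parental ones by the quasi-likelihood test of edgeR, with Benjamini-Hochberg adjustment over 18398 genes. Of the 71 genes, 50 passed the filter on low counts. A gene that passed it only through its level in drug-resistant cells had to differ, so the counts that follow are descriptions. At an adjusted p under 0.05, 21 genes rose and 6 fell, beside 18.5% of all genes tested that rose and 15.3% that fell. The median log2 fold change was 0.93 over the 50 genes and 0.06 over all genes. With a single library for CR and for DR, the spread in this fit includes differences between the drugs. With upper-quartile scaling in place of TMM the median of all genes moved from 0.06 to 0.23, and 4210 genes rose and 2032 fell in place of 3397 and 2823, while 23 of the 50 genes rose and 5 fell.

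MMP1, the interstitial collagenase that cuts fibrillar collagen, changed most among the well-expressed genes. Its FPKM was 1.30, 1.03 and 0.478 in the 3 parental libraries, 182 after cisplatin, 219.6 and 364 after paclitaxel and 45.2 after doxorubicin. Every drug-resistant library was above every parental one, the lowest being DR and the highest PR replicate 2, and the log2 fold change was 7.62 ± 0.73, adjusted p = 0.000193 (SE, edgeR). The gene lies at chr11:102789919-102798160 and took between 64.1% and 91.9% of the summed FPKM of all 23 MMPs in the drug-resistant libraries. In TS cells it was near 0, with 0.144 in TS cells of H460 and, for A549, 0 in 2D and 0.101 in TS cells. Its neighbour MMP10, stromelysin-2, was at 0.052, 0.330 and 0.218 in the 3 parental libraries, 1.94 after cisplatin, 2.33 and 3.32 after paclitaxel and 0.699 after doxorubicin, again without overlap, and rose by 3.22 ± 0.63, adjusted p = 0.00402 (edgeR) on the log2 scale. MMP7 (matrilysin), of the smallest MMPs, was at 0, 0.024 and 0.032 in the 3 parental libraries, 0.335 after cisplatin, 0.419 and 0.436 after paclitaxel and 0.171 after doxorubicin, which was low in every library but higher without overlap in drug-resistant cells (3.78 ± 0.79, adjusted p = 0.00534, edgeR). With a parental library at 0, MMP7 passed the filter on low counts only with the drug-resistant libraries, so its call is a description. MMP10 was also low in parental cells. Whether it would have passed without the drug-resistant libraries was not checked, so its call is read as a description too. MMP12, the macrophage elastase, had 0 counts in the parental libraries and 8, 26, 17 and 5 counts in CR, PR replicate 1, PR replicate 2 and DR cells, which is at least 4.17-fold higher on average when 3 counts per parental library are taken as the floor. MMP20 stayed between 0.044 and 0.17 in the 7 libraries, and MMP27 and MMP8 were at or below 0.057.

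The gelatinases, which degrade denatured collagen and basement membrane collagen, had no counts in parental cells. MMP2 had 0 counts in all 3 parental libraries and 25 for CR, 616 and 501 for PR and 61 for DR cells. This is at least 90.8-fold higher on average, with the floor of 3 counts per parental library. MMP2 passed the filter on low counts only through the drug-resistant libraries, so its call, 1 of the 21, is a description. Its FPKM was 0.078 after cisplatin, 2.08 and 2.13 after paclitaxel and 0.170 after doxorubicin, so PR cells were high and the other 2 drugs low. The call was lost when log2(FPKM + 1) was tested with limma (adjusted p = 0.0703). MMP9 had 0 counts in the parental and CR libraries, 15 and 40 in PR and 11 in DR cells, which is an FPKM of 0 after cisplatin, 0.075 and 0.255 after paclitaxel and 0.046 after doxorubicin. It did not pass the filter in the fit of all drugs, and passed that of the PR fit only through the PR libraries.

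Of the 6 membrane-type MMPs, 1 rose and 1 fell in the drug-resistant fit, shares near the 18.5% and 15.3% of all genes. MMP17, a lipid-anchored enzyme that led the MMPs in parental cells, was at 10.4, 12.5 and 14.5 in the 3 parental libraries, 19.0 after cisplatin, 17.1 and 17.1 after paclitaxel and 15.8 after doxorubicin. All drug-resistant libraries lay above the parental range, but the difference was small and did not pass the test (0.35 ± 0.19, adjusted p = 0.188, edgeR). MMP16 fell, from 3.90, 2.76 and 3.32 in the parental libraries to 1.00 after cisplatin, 2.67 and 1.13 after paclitaxel and 1.41 after doxorubicin, without overlap (−1.23 ± 0.30, adjusted p = 0.011). MMP24 was at 0.049, 0.021 and 0 in the 3 parental libraries, 0.142 after cisplatin, 0.133 and 0.275 after paclitaxel and 0.183 after doxorubicin and rose by 2.77 ± 0.82, adjusted p = 0.0258 (edgeR), and this call was lost without parental replicate 2 (2.66, adjusted p = 0.0985) and without PR replicate 2 (2.59, adjusted p = 0.0554). MMP14, the activator of the MMP2 precursor, was at 0.0064, 0.027 and 0.035 in the 3 parental libraries, 0 after cisplatin, 0.200 and 0.252 after paclitaxel and 0.019 after doxorubicin. PR cells stood above the others, the groups overlapped, and the fit of all drugs gave 2.09 ± 1.22, adjusted p = 0.207 (edgeR), whereas the PR fit gave 2.98 ± 0.66, adjusted p = 0.0103. PR cells were also highest in MMP25, at 0.022, 0.087 and 0.071 in the 3 parental libraries, 0.107 after cisplatin, 0.463 and 1.00 after paclitaxel and 0.057 after doxorubicin, with 2.52 ± 0.89, adjusted p = 0.0506 over all drugs and 3.31 ± 0.58, adjusted p = 0.00484 in the PR fit (edgeR). MMP15 was at 2.99, 2.96 and 3.25 in parental and 4.39 after cisplatin, 3.12 and 4.45 after paclitaxel and 5.46 after doxorubicin and did not pass the test. MMP28 (epilysin), outside these classes, was at 0, 0.020 and 0.0085 in the 3 parental libraries, 0.492 after cisplatin, 0.595 and 0.704 after paclitaxel and 0.485 after doxorubicin, without overlap (4.91 ± 0.71, adjusted p = 0.000832, edgeR). MMP24 and MMP28 each had a parental library at 0 and passed the filter on low counts only with the drug-resistant libraries, so both calls are descriptions.

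TIMP1 had the highest FPKM of the 71 genes in every H460 library, and it rose. TIMP1 was at 198, 229.8 and 240.3 in the 3 parental libraries, 786 after cisplatin, 702 and 845 after paclitaxel and 748 after doxorubicin. The drug-resistant libraries all stood far above the parental ones, and the log2 fold change was 1.66 ± 0.19, adjusted p = 0.000343 (SE, edgeR). TIMP2, which both inhibits MMPs and takes part in MMP2 activation, rose likewise, 10.9, 12.3 and 17.7 in the 3 parental libraries, 36.9 after cisplatin, 38.1 and 50.0 after paclitaxel and 35.0 after doxorubicin, with no overlap and 1.42 ± 0.23, adjusted p = 0.00152. TIMP4 followed at a lower level, 1.24, 1.80 and 1.89 in the 3 parental libraries, 4.72 after cisplatin, 5.58 and 5.58 after paclitaxel and 6.02 after doxorubicin, with 1.61 ± 0.25, adjusted p = 0.00126 (edgeR). TIMP3, the inhibitor that stays bound to the matrix, had 0 counts in the parental libraries, 8 for CR, 59 and 46 for PR and 5 for DR cells, at least 8.91-fold higher on average over the floor. It did not pass the filter in the fit of all drugs, and passed that of the PR fit only through the PR libraries. Summed over each family, the 4 TIMPs were at 210 to 260 in parental and 746 to 901 in drug-resistant cells, and the 23 MMPs at 19.1 to 23.0 and 70.5 to 396. The ratio of the 2 sums was 11.0, 11.9 and 11.3 in the parental libraries, 3.94 for CR, 2.99 and 2.28 for PR and 11.2 for DR cells. CR and PR cells thus had less TIMP mRNA for each unit of MMP mRNA than parental cells, and DR cells lay inside the parental range of this ratio. It was 20.9 in H460 TS cells, above the parental values, and 3.46 and 2.74 in A549 2D and TS cells.

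**Figure D2:**
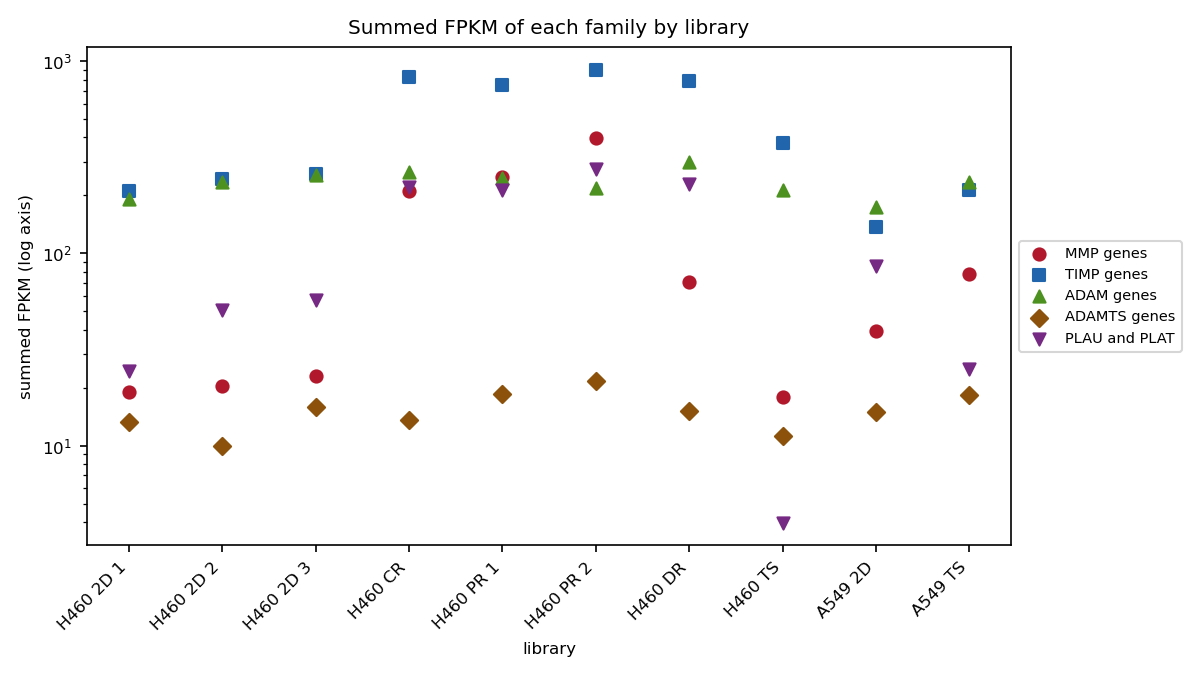
Summed FPKM (log axis) of the 23 MMP, 20 ADAM, 19 ADAMTS and 4 TIMP genes and of PLAU and PLAT in each of the 10 libraries. The MMP sum went from 19.1 to 23.0 in parental to 70.5 to 396 in drug-resistant cells, the ADAM sum stayed between 173 and 298, and PLAU and PLAT summed to 3.97 in H460 TS cells.

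Of the 3 plasminogen activation genes, PLAU and PLAT rose. PLAU, at chr10:73908832-73917494, was at 18.4, 38.1 and 44.2 in the 3 parental libraries, 125 after cisplatin, 177 and 236 after paclitaxel and 168 after doxorubicin, without overlap, and rose by 2.26 ± 0.32, adjusted p = 0.000809 (SE, edgeR). PLAT, which was highest in CR cells, was at 6.11, 12.7 and 12.6 in the 3 parental libraries, 97.3 after cisplatin, 35.1 and 39.6 after paclitaxel and 59.9 after doxorubicin, and rose by 2.38 ± 0.44, adjusted p = 0.0028. The receptor PLAUR, which holds urokinase at the cell surface, was at 18.7, 29.9 and 31.1 in the 3 parental libraries, 42.4 after cisplatin, 36.9 and 44.4 after paclitaxel and 34.4 after doxorubicin. Its 4 drug-resistant libraries also lay above the parental ones, but the difference was 0.43 ± 0.22, adjusted p = 0.155 (edgeR) and did not pass the test. Beside 18.5% of all genes that rose and 15.3% that fell, 3 of 7 other genes of the plasminogen system that were tested (10 in the list) rose and none fell. Among those that rose were the serine protease inhibitor SERPINE2 (2.93, adjusted p = 0.000465) and the plasmin inhibitor SERPINF2 (4.22, adjusted p = 0.011, edgeR). With parental counts of 3, 0 and 6, SERPINF2 passed the filter on low counts only through the drug-resistant libraries, so its call is a description. ANXA2, which binds PLAT and plasminogen at the surface, was at 0.49 ± 0.21, adjusted p = 0.1 and did not pass. Plasminogen itself (PLG) was at or below 0.030 in all H460 libraries.

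**Figure D3:**
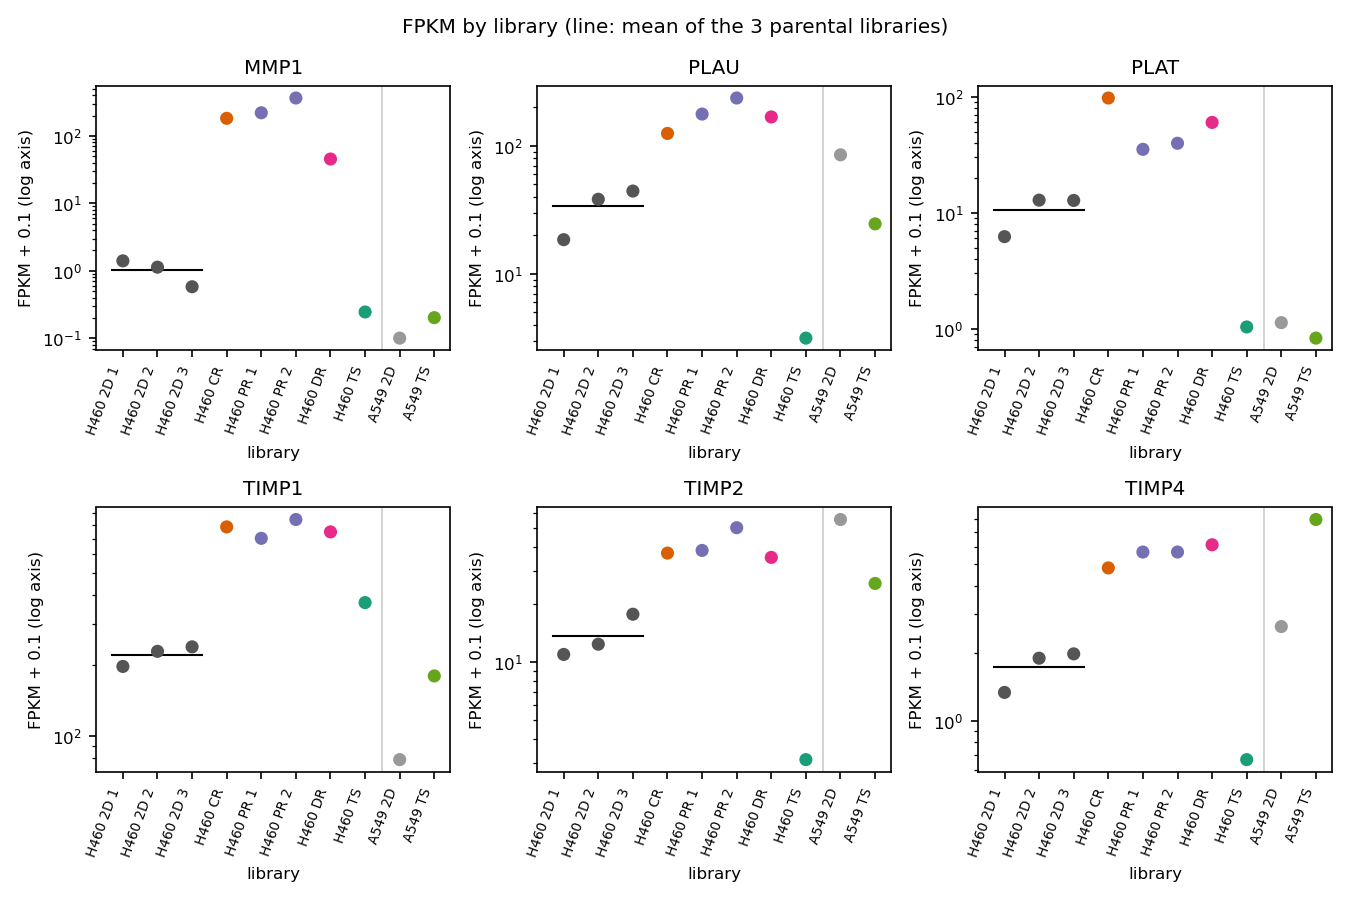
FPKM + 0.1 (log axis) of MMP1, PLAU, PLAT, TIMP1, TIMP2 and TIMP4 in the 10 libraries, with a line at the mean of the 3 parental libraries. The 4 drug-resistant libraries lay above the parental ones in every panel, and H460 TS cells lay below them in all panels but TIMP1.

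Of the 20 ADAM genes, 14 were tested, 3 rose and 2 fell, shares near the 18.5% and 15.3% of all genes, with a median log2 fold change of 0.12. ADAM15, ADAM9, ADAM23 and ADAM17, the last the main sheddase of EGF-receptor ligands and of tumor necrosis factor, had the highest levels of the family in the parental libraries. ADAM23, an adhesion protein without protease activity, was at 15.1, 15.2 and 19.2 in the 3 parental libraries, 20.9 after cisplatin, 18.0 and 18.5 after paclitaxel and 25.3 after doxorubicin (0.21 ± 0.22, adjusted p = 0.481, edgeR). ADAM9 was at 52.6, 71.2 and 77.1 in the 3 parental libraries, 85.1 after cisplatin, 95.8 and 58.5 after paclitaxel and 101 after doxorubicin, and ADAM15 at 95.1, 116 and 124 in the 3 parental libraries, 134 after cisplatin, 96.3 and 109.5 after paclitaxel and 147 after doxorubicin. ADAM17 was at 16.3, 17.7 and 17.4 in the 3 parental libraries, 14.2 after cisplatin, 22.7 and 20.8 after paclitaxel and 14.4 after doxorubicin. In ADAM9, ADAM15 and ADAM17 the groups overlapped, and the log2 fold changes were 0.25 ± 0.26, adjusted p = 0.465, 0.02 ± 0.23, adjusted p = 0.951 and −0.06 ± 0.19, adjusted p = 0.839 (edgeR). ADAM10, which cuts Notch and cadherins, was called lower, 6.13, 6.67 and 6.77 in the 3 parental libraries, 4.39 after cisplatin, 6.24 and 3.64 after paclitaxel and 4.73 after doxorubicin, although PR replicate 1 lay inside the parental range, with −0.61 ± 0.19, adjusted p = 0.0293 (edgeR). This call was lost with upper-quartile scaling (−0.44, adjusted p = 0.0753) and on leaving out any library but PR replicate 1 (adjusted p = 0.052 to 0.0781). ADAM22, a neuronal adhesion protein without protease activity, fell without overlap, from 1.93, 2.14 and 2.31 to 0.981 after cisplatin, 1.11 and 0.742 after paclitaxel and 1.08 after doxorubicin (−1.30 ± 0.21, adjusted p = 0.00145). ADAM8 was at 0.716, 0.607 and 0.944 in the 3 parental libraries, 1.07 after cisplatin, 2.46 and 2.41 after paclitaxel and 1.06 after doxorubicin and rose by 1.04 ± 0.35, adjusted p = 0.0395 (edgeR), with PR cells highest, and the call was lost without parental replicate 1 or 2 or either PR replicate (adjusted p = 0.099 to 0.133). ADAM28, at 0, 0.010 and 0.0032 in the 3 parental libraries, 0.010 after cisplatin, 0.041 and 0.047 after paclitaxel and 0.077 after doxorubicin (2.48 ± 0.87, adjusted p = 0.0495), and ADAM32, at 0.095, 0.135 and 0.096 in the 3 parental libraries, 0.199 after cisplatin, 0.416 and 0.394 after paclitaxel and 0.354 after doxorubicin (1.49 ± 0.40, adjusted p = 0.0178, edgeR), also rose from low levels. The ADAM28 call was lost without any 1 parental library (adjusted p = 0.0666 to 0.14), and the ADAM32 call without parental replicate 1 (1.37, adjusted p = 0.054). ADAM28 also had a parental library at 0 and passed the filter on low counts only with the drug-resistant libraries, so its call is a description. ADAM12, at 0.576, 1.01 and 1.29 in the 3 parental libraries, 0.625 after cisplatin, 1.07 and 0.983 after paclitaxel and 1.23 after doxorubicin, overlapped between the groups (−0.09 ± 0.31, adjusted p = 0.836), and ADAM19 did not pass the test either (−0.48 ± 0.26, adjusted p = 0.177, edgeR).

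The 19 ADAMTS genes split in direction. Of the proteoglycanases, ADAMTS1 was the most abundant, at 8.76, 5.84 and 10.3 in the 3 parental libraries, 3.89 after cisplatin, 7.26 and 9.82 after paclitaxel and 4.62 after doxorubicin. It was lower in CR and DR but not in PR cells, the groups overlapped, and it did not pass the test (−0.53 ± 0.30, adjusted p = 0.192, edgeR). ADAMTS9 fell without overlap, from 1.56, 1.60 and 2.05 to 0.760 after cisplatin, 1.24 and 1.05 after paclitaxel and 0.850 after doxorubicin (−0.96 ± 0.21, adjusted p = 0.00712), and ADAMTS15 rose from 0.035, 0.017 and 0.0094 to 0.075 after cisplatin, 0.178 and 0.096 after paclitaxel and 0.102 after doxorubicin (2.25 ± 0.53, adjusted p = 0.00969, edgeR). Of the procollagen N-proteinases, which trim the amino-terminal propeptides of collagens, ADAMTS2 rose (2.89 ± 0.88, adjusted p = 0.0284) and ADAMTS3 fell (−2.27 ± 0.38, adjusted p = 0.00177, edgeR), both at an FPKM of at most 0.43, and the ADAMTS2 call was lost without any 1 parental library (adjusted p = 0.0543 to 0.0736). ADAMTS6 was at 0.731, 0.597 and 0.707 in the 3 parental libraries, 3.12 after cisplatin, 3.64 and 3.56 after paclitaxel and 2.21 after doxorubicin and rose by 2.15 ± 0.22, adjusted p = 0.000229 (edgeR). ADAMTS7, which degrades cartilage oligomeric matrix protein, was at 0.330, 0.650 and 1.17 in the 3 parental libraries, 3.29 after cisplatin, 3.39 and 3.76 after paclitaxel and 4.16 after doxorubicin and rose by 2.18 ± 0.38, adjusted p = 0.00207 (edgeR). In both genes all drug-resistant libraries lay above the parental ones. ADAMTS16 went from 0.137, 0.022 and 0.089 to 0.549 after cisplatin, 1.21 and 1.15 after paclitaxel and 1.82 after doxorubicin (3.67 ± 0.60, adjusted p = 0.00163), and ADAMTS13, the von Willebrand factor protease, from 0.077, 0.195 and 0.549 to 1.54 after cisplatin, 0.881 and 1.30 after paclitaxel and 0.746 after doxorubicin (1.87 ± 0.55, adjusted p = 0.0254, edgeR). The ADAMTS13 call was lost without parental replicate 1 or 2, CR or PR replicate 2 (adjusted p = 0.0511 to 0.1). ADAMTS2, ADAMTS15 and ADAMTS16 were low in parental cells. Whether they would have passed the filter on low counts without the drug-resistant libraries was not checked, so their calls are read as descriptions. ADAMTS12 fell from 1.04, 0.671 and 0.640 to 0.235 after cisplatin, 0.479 and 0.428 after paclitaxel and 0.298 after doxorubicin (−1.26 ± 0.32, adjusted p = 0.0132, edgeR), and this call was lost without parental replicate 1 (−0.95, adjusted p = 0.0556). The read-through locus MMP24-AS1-EDEM2 was called higher (1.46 ± 0.43, adjusted p = 0.0254) and MMP24OS was not (0.64 ± 0.24, adjusted p = 0.0583, edgeR). The MMP24-AS1-EDEM2 call was lost without parental replicate 1 or 2, DR or PR replicate 2 (adjusted p = 0.0557 to 0.0958).

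**Figure D4:**
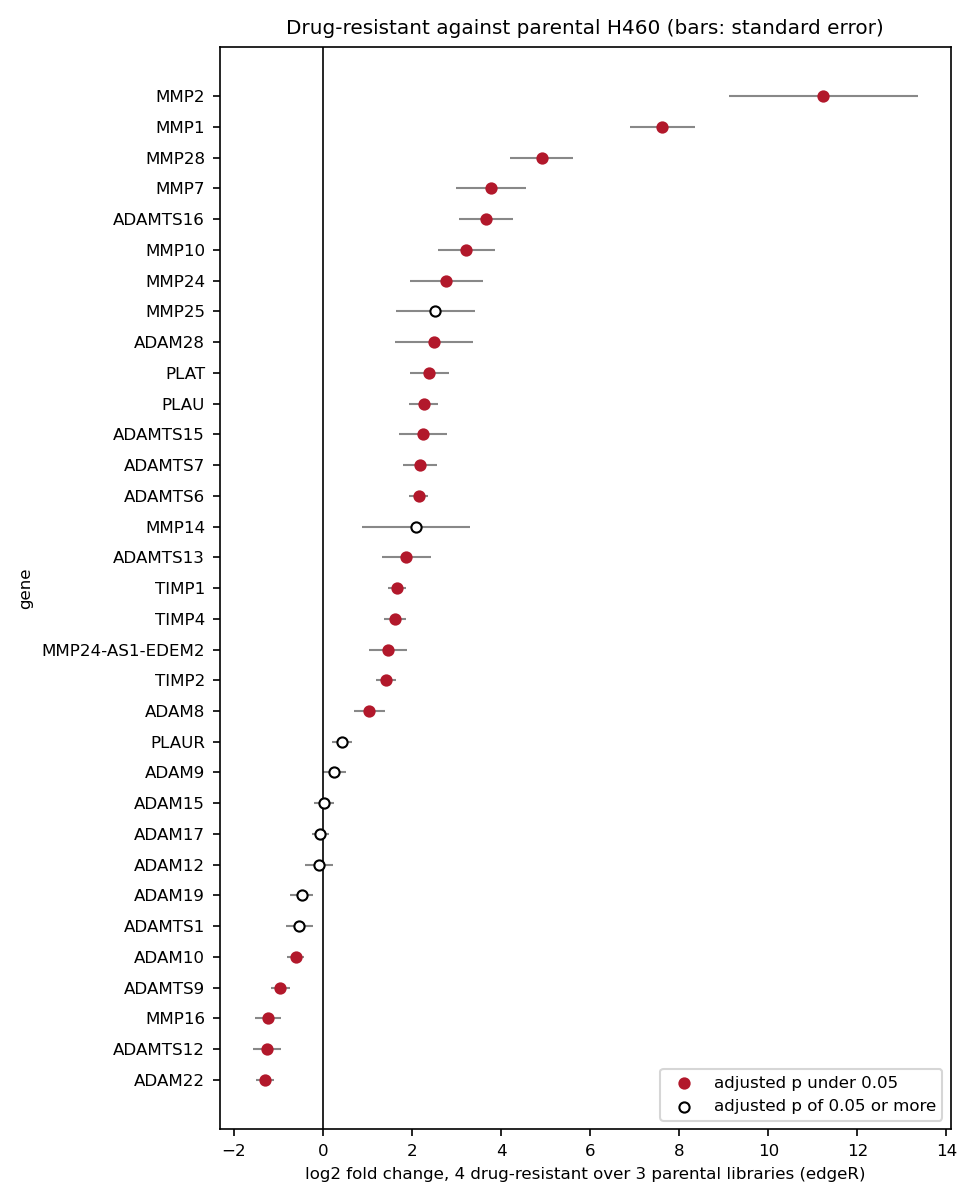
Log2 fold change (edgeR, 4 drug-resistant over 3 parental libraries) of the named genes that were tested, with bars of 1 standard error and filled points for an adjusted p under 0.05. MMP2, whose parental counts were 0, stands farthest to the right with a fitted value that depends on the prior count, and ADAM22 stands lowest.

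Counted without a test, the groups did not overlap in 21 of the 31 genes with an FPKM of 1 or more in any of the 7 libraries. The drug-resistant libraries were all above in 17 (54.8%) and all below in 4 (12.9%), beside 21.4% and 18.0% of 11423 protein-coding genes with the same minimum. The 17 include MMP24OS and MMP24-AS1-EDEM2. A gene that reached the minimum only in drug-resistant libraries, such as MMP2, MMP10 and ADAMTS16, could not lie below, so these counts are descriptions. The 27 calls kept their direction within each form of library name that the files use, with PR replicate 1 against parental replicates 1 and 3 in one form, and CR, DR and PR replicate 2 against parental replicate 2 in the other. For MMP1 the difference of log2(FPKM + 1) was 6.90 in the first form and 6.17 in the second, for PLAU 2.59 and 2.13, for PLAT 1.87 and 2.18, and for TIMP1 1.68 and 1.78. For ADAM10 it was −0.04 and −0.55. With the form as a covariate in the fit, 18 genes rose and 5 fell, beside 2682 and 2345 of all genes tested (edgeR).

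Paclitaxel was the only drug with 2 libraries. The fit of PR against parental cells tested 54 of the 71 genes, of which 23 rose and 2 fell, beside 17.5% and 10.6% of 19430 genes. Here too a gene that passed the filter only through its level in PR cells, such as MMP2, MMP9, MMP12 and TIMP3 with no parental counts, had to differ, so these counts are descriptions. It shares the parental libraries and both PR libraries with the fit of all drugs. MMP1 (8.05 ± 0.47, adjusted p = 0.000202), PLAU (2.38 ± 0.37, adjusted p = 0.00345), PLAT (1.59 ± 0.33, adjusted p = 0.00817) and TIMP1 (1.55 ± 0.24, adjusted p = 0.0033, edgeR) were among those that rose, and ADAM22 and ADAMTS3 fell. MMP14 and MMP25 were called in this fit and not over all drugs, where MMP25 was near the threshold (adjusted p = 0.0506, edgeR) and was called in 6 of 15 settings (DESeq2 adjusted p = 0.00483). MMP9, MMP12, TIMP3 and ADAMTS4 were called in this fit and were not tested over all drugs. TIMP3 was called in the 4 alternatives for all drugs that tested it, but with no parental counts it had to differ there, so these calls are descriptions too. Each of the 6 genes was at an FPKM of at most 1.00 in PR cells. ADAMTS4, an aggrecan-degrading enzyme, was at 0, 0 and 0.0021 in the 3 parental libraries, 0.0046 after cisplatin, 0.020 and 0.053 after paclitaxel and 0.0041 after doxorubicin. With upper-quartile scaling 4252 genes rose and 1347 fell over all genes, in place of 3391 and 2064, and the median of all genes moved from 0.05 to 0.30. The number of the 71 genes called was 25 with both PR libraries, 15 without PR replicate 1 and 9 without PR replicate 2, and 9 of the 25 calls, MMP1, PLAU and TIMP1 among them, were kept on leaving out each library. Without PR replicate 2 the calls lost included PLAT (1.54, adjusted p = 0.0778), TIMP2 (1.27, 0.0976), TIMP4 (1.56, 0.0952), ADAM22 (−1.26, 0.0962) and MMP9, MMP14 and MMP25 (adjusted p = 0.127, 0.12 and 0.0759, edgeR). Whether PR differed from the other drugs was compared after the values had been seen, as PR against CR and DR within the 7 H460 libraries. No gene was called by edgeR among 19770 tested (0.0% in either direction), and none of the 54 of the 71 genes that were tested. At an unadjusted p under 0.05 there were 2479 genes, 11 of them among the 54. The difference was 3.88 ± 0.48 for MMP2 (SE, adjusted p = 0.113), 2.95 ± 0.66 for MMP25 (adjusted p = 0.159), 4.14 ± 1.08 for MMP14 and 3.11 ± 0.74 for TIMP3 (adjusted p = 0.186 for both), −1.27 ± 0.38 for PLAT (adjusted p = 0.226) and 1.15 ± 0.60 for MMP1 (adjusted p = 0.472, edgeR).

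Taken 1 drug at a time with no test, 7 genes were past 2-fold in each. The difference of log2(FPKM + 1) from the mean of the parental libraries was past 2-fold upward in 10 of the 71 genes for CR, 11 for PR and 8 for DR, beside 3.27%, 4.29% and 3.35% of the 19672 protein-coding genes. It was past 2-fold downward in 1 (MMP16, in CR), 0 and 0, beside 4.18%, 3.52% and 3.36%. MMP1, PLAU, PLAT, TIMP1, TIMP2, TIMP4 and ADAMTS7 were past 2-fold in all 3 drugs, 7 genes, where 1.96% of protein-coding genes were. MMP10 and ADAMTS6 were past it in CR and PR cells, ADAMTS16 in PR and DR cells, ADAMTS13 in CR cells and MMP2 in PR cells. CR and DR had no replicate, so these differences have no replicate check, and the 3 drugs share the same control.

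In TS cells PLAU and TIMP2 were lower than in 2D cells of both lines and TIMP1 was higher, but no gene of the 71 passed the test over both lines. The fit of TS against 2D over both lines, with the line as a covariate, tested 51 of the 71 genes and called none (edgeR), beside 0.147% of 18372 genes that rose and 0.0435% that fell. At an unadjusted p under 0.05, 3 of the 51 were higher and 6 lower, beside 1363 of all 18372 genes in either direction. DESeq2 called 6 of the 51 (2 higher and 4 lower) and 537 of all genes, and a fit of all 10 libraries called 10 (4 higher and 6 lower) and 555 of all genes. TS had 1 library per line, so the values of each line are given with no replicate check. In H460 TS cells 1 of the 71 genes was past 2-fold upward and 4 downward, beside 1.09% and 1.16% of protein-coding genes. In A549 TS cells 6 were past it upward and 6 downward, beside 3.99% and 1.73%.

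Both plasminogen activators were low in H460 TS cells. PLAU was at 18.4, 38.1 and 44.2 in parental cells and 3.04 in TS cells of H460, and 84.9 in 2D and 24.4 in TS cells of A549. TS was below 2D in both lines, and the fit over both gave −2.73 ± 0.60, adjusted p = 0.186 (edgeR). PLAT was at 0.934 in H460 TS cells, below the parental range of 6.11 to 12.7, but 1.03 in 2D and 0.729 in TS cells of A549, both low (−2.16 ± 0.84, adjusted p = 0.604 over both lines). PLAUR was 10.0 in H460 TS cells, below the parental libraries, and 16.0 in 2D and 24.8 in TS cells of A549, below 2D in H460 and above it in A549 (−0.52 ± 0.57, adjusted p = 1, edgeR). The drug-resistant cells, which rose in PLAU and PLAT, and H460 TS cells, which were lower, thus stood on opposite sides of the same parental libraries, which both comparisons share.

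Of the inhibitors, TIMP1 and TIMP2 stood on opposite sides of 2D cells. TIMP1 was 372 in H460 TS cells, above the parental 198 to 240, and 78.8 in 2D and 180.3 in TS cells of A549, higher in TS in both lines (0.94 ± 0.24, adjusted p = 0.271, edgeR). TIMP2 was 3.02 in H460 TS against 10.9 to 17.7 in parental cells, and 55.2 in 2D and 25.6 in TS cells of A549, lower in TS in both lines (−1.71 ± 0.41, adjusted p = 0.225). TIMP4 was 0.569 in H460 TS cells, below the parental 1.24 to 1.89, but 2.54 in 2D and 7.84 in TS cells of A549. TIMP3 was near 0 in H460 TS cells (0.011) and went from 0.517 to 0.053 in A549 cells. None of the 4 passed the test over both lines.

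MMP7 and MMP28 were the MMPs past 2-fold upward in A549 TS cells. MMP7 was 2.83 in 2D and 50.2 in TS cells of A549, and 0.241 in H460 TS cells against at most 0.032 in parental cells. Both lines were higher in TS, with 3.91 ± 0.59, adjusted p = 0.078 in the fit over both (edgeR), which missed the threshold. MMP7 led the MMPs of A549 TS cells, with 64.4% of their summed FPKM. MMP28 was 0.323 in 2D and 11.1 in TS cells of A549 and at a count of 0 in H460 TS cells. MMP24, which led the MMPs of A549 2D cells with 49.3% of their summed FPKM, was 19.5 in 2D and 5.85 in TS cells of A549 and low in all H460 libraries. ADAM28, a membrane-bound and secreted protease, was listed at 0 in A549 2D cells and at 1.85 in A549 TS cells, from 0 and 1014 counts. ADAMTS10, which binds microfibrils, was 4.64 in 2D and 11.0 in TS cells of A549 and at most 0.051 in H460 cells. ADAMTS16 (1.29 in 2D and 0.117 in TS cells of A549), ADAMTS12 (1.33 in 2D and 0.116 in TS cells of A549) and ADAM19 were lower in A549 TS cells. MMP1 and MMP10, high in drug-resistant H460 cells, were at or below 0.14 in all TS libraries and in A549 2D cells.

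ADAM19 stood on opposite sides of 2D cells in the 2 lines. This protease of the neuregulin-shedding kind was at 2.16, 2.82 and 4.51 in parental cells and 20.6 in TS cells of H460, and 3.37 in 2D and 0.679 in TS cells of A549. H460 TS cells stood above all other libraries, whereas A549 TS cells stood below all. The interaction of line and culture, a fit added after the values were seen, was −4.95 ± 0.78 on the log2 scale (SE, A549 minus H460, adjusted p = 0.0413, edgeR), in a fit of 6 libraries with 2 residual degrees of freedom. H460 TS, A549 2D and A549 TS had 1 library each and were assumed to vary like the parental ones. Of the libraries, only the 3 parental ones gave a spread for the p, and edgeR moderates this spread by that of the other genes tested. Without each parental library in turn it lay between −5.37 and −4.73, with adjusted p values from 0.00193 to 0.0224. In drug-resistant cells ADAM19 was at 2.58 after cisplatin, 2.60 and 2.85 after paclitaxel and 1.99 after doxorubicin, inside or just below the parental range.

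**Figure D5:**
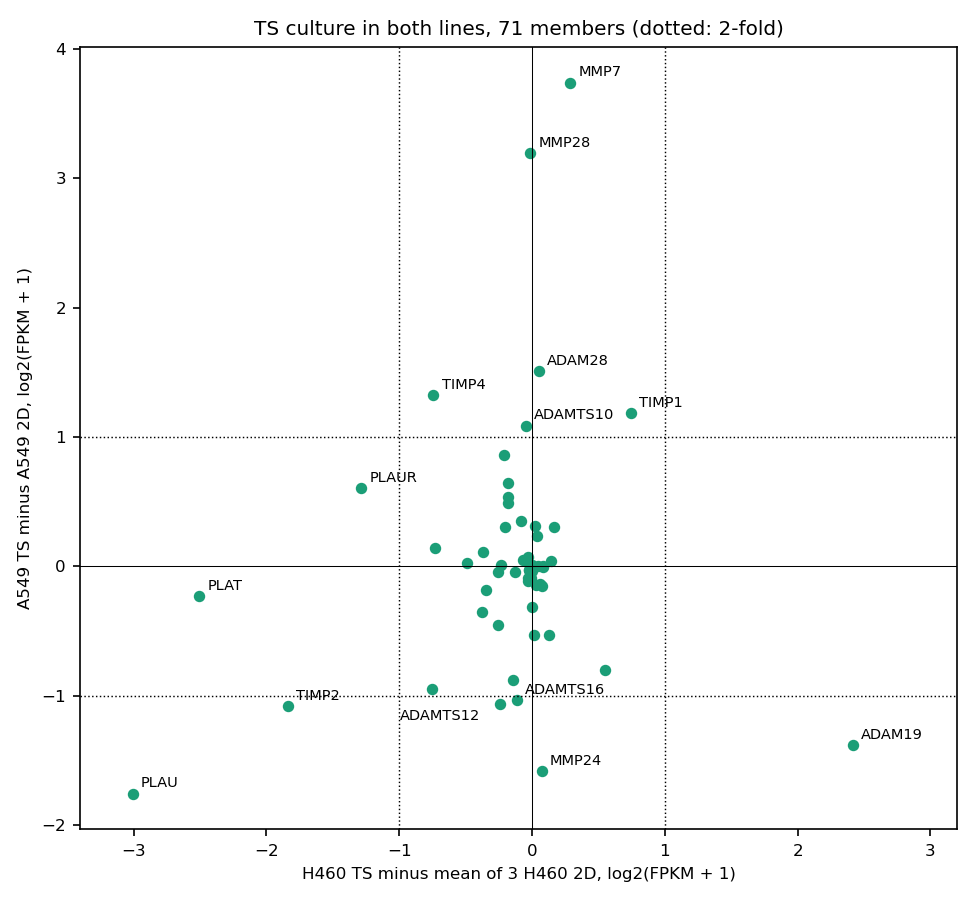
Difference of log2(FPKM + 1) between TS and 2D cells in H460 (horizontal, against the mean of 3 parental libraries) and A549 (vertical, 1 library against 1) for the 71 genes, with dotted lines at 2-fold. PLAU and TIMP2 lie low in both lines, ADAM19 is high in H460 and low in A549, and MMP7 and MMP28 are high in A549 only.

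Genes that govern the proteases were followed as lists, whose counts stand beside the 18.5% of all genes that rose and 15.3% that fell. Of 17 metalloproteinase regulators, 16 were tested in the drug-resistant fit, 7 rose and 1 fell, with a median of 0.59. The 4 with the smallest p were FRMD8 (2.19, adjusted p = 0.000214), a partner of the rhomboid-like carriers of ADAM17, TSPAN5 (1.84, 0.00107), a tetraspanin that escorts ADAM10, TFPI2 (1.52, 0.00152), a secreted protease inhibitor, and TSPAN15 (−1.05, 0.00361), another ADAM10 escort, which fell (edgeR). RECK, a membrane inhibitor of MMPs, did not pass (0.11 ± 0.27, adjusted p = 0.787), nor did the proprotein convertase FURIN (0.31 ± 0.38, adjusted p = 0.554, edgeR). Of 7 EGF-family ligands that ADAM10 or ADAM17 release, 4 rose and none fell, with a median of 1.80. They were TGFA (3.04, adjusted p = 0.0016), AREG (2.24, 0.00451), BTC (1.80, 0.0128) and EREG (3.09, 0.0465, edgeR). EREG was at 0.010, 0.032 and 0.013 in the 3 parental libraries, 0.013 after cisplatin, 0.359 and 0.363 after paclitaxel and 0.028 after doxorubicin, so the CR and DR libraries lay inside the parental range and only those of PR above it. With parental counts of 5, 11 and 6, EREG passed the filter on low counts only with the drug-resistant libraries. Its call, 1 of the 4, is a description. AREG, the highest of these 4, was at 0.509, 0.839 and 0.664 in the 3 parental libraries, 1.57 after cisplatin, 3.56 and 6.67 after paclitaxel and 2.38 after doxorubicin. Of the sheddases, ADAM17 overlapped between the groups. ADAM10 was called lower (−0.61, adjusted p = 0.0293, edgeR), a call that was lost in several alternatives as given above. Of 15 astacins, pappalysins and ADAMTS-like genes, 9 were tested, 3 rose and none fell, with a median of 0.77. BMP1, which trims procollagen at its carboxyl end, was at 3.92, 3.82 and 4.96 in the 3 parental libraries, 16.4 after cisplatin, 14.0 and 17.5 after paclitaxel and 16.3 after doxorubicin (1.78 ± 0.21, adjusted p = 0.000332), and TLL2 (2.73, 0.014) and PAPPA (1.59, 0.0323, edgeR) also rose, while MEP1B, by p the fourth, did not (1.82 ± 1.29, adjusted p = 0.297). With parental counts of 15, 4 and 7, TLL2 also passed the filter only with the drug-resistant libraries, so its call, 1 of the 3, is a description. Of 9 AP-1 subunits, 8 were tested, 2 rose, a share near that of all genes, and none fell, with a median of 0.51. JUNB was at 25.9, 29.9 and 53.0 in the 3 parental libraries, 134 after cisplatin, 96.7 and 87.7 after paclitaxel and 75.1 after doxorubicin (1.32 ± 0.32, adjusted p = 0.0114), and ATF3 went from 1.33, 1.98 and 7.71 to 10.2 after cisplatin, 15.7 and 43.8 after paclitaxel and 8.63 after doxorubicin (2.32 ± 0.71, adjusted p = 0.03, edgeR). JUN (0.99 ± 0.65, adjusted p = 0.263) and FOSL1 (0.63 ± 0.45, adjusted p = 0.301) did not pass. In the TS fit none of these lists had a gene called (edgeR).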

How the data were processed

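RNA from H460 cells (8 libraries) and A549 cells (2 libraries) had been sequenced from poly(A) libraries. The authors deposited, per gene and library, read counts as whole numbers without normalization, FPKM scaled by the authors for transcript length and library size, and TPM, which the authors scaled to a common total and which served here only to check the FPKM. The submitters' processing notes name bcl2fastq 1.8.4, Trimmomatic, HISAT2 2.1.0, StringTie 2.1.3b and GRCh38, with no role or order. In every library a count of 2 was more frequent than a count of 1, so a count may not be 1 independent read, and how reads shared by overlapping genes were treated is not given in the sources used here.

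Counts were tested with edgeR 4.0.16 (TMM, filterByExpr, glmQLFit and glmQLFTest) in R 4.3.3, with Benjamini-Hochberg adjustment over all genes tested and a threshold of 0.05. DESeq2 1.42.0 and limma 3.58.1 on log2(FPKM + 1) were alternatives, beside other scalings, filters and pseudocounts, single controls, and each replicate left out in turn. SEs are the log2 fold change divided by the root of the F statistic. Single libraries were compared on log2(FPKM + 1) with a 2-fold limit. Floors of 3 counts per library cover counting error only. In simulated counts with 200 genes changed 4-fold (log2 fold 2), the drug-resistant fit (18398 genes), the PR fit (19430) and the TS fit (18372) recovered 95%, 90.5% and 66.5%. Of the genes called there, 6.40%, 7.65% and 6.99% had not been changed. The changed genes were drawn from well-counted genes only, so these shares do not cover genes with low counts. Positions and promoters are RefSeq on GRCh38.p14.

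The genes and lists were chosen with earlier results of these data known. Values are given for genes that reached an FPKM of 1 in any library and passed the test in any fit (at most 25), for a set of 23 known genes, for genes past 2-fold in opposite directions, and for up to 4 genes per list. Other genes of the 71, and RECK, FURIN, JUN, FOSL1 and PLG, were added after their values were seen. Protein sequences were not used here, and 1 gene of the lists is not reported here.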

Additional observations from a re-analysis of the deposited data

Results flagged for a closer look

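ADAM19, a membrane-bound metalloproteinase, had TS effects in opposite directions in the 2 lines. On log2(FPKM + 1), H460 TS cells were 2.42 above the mean of the 3 parental libraries, and A549 TS cells were at −1.38 relative to A549 2D cells. The difference of the 2 effects in the edgeR interaction fit was −4.95 ± 0.78 (SE, adjusted p = 0.0413, n = 6 libraries). This fit was added after the values were seen, and H460 TS, A549 2D and A549 TS had 1 library each and were assumed to vary like the 3 parental libraries, so the difference has no replicate check in 3 of the 4 groups. ADAM19 was the 1 gene called among 51 of the 71 that were tested, and 73 genes were higher and 18 lower in the same fit of 18372. The FPKM behind it was 2.16, 2.82 and 4.51 in parental cells, 20.6 in TS cells of H460, and 3.37 in 2D and 0.679 in TS cells of A549. No drug-resistant library stood apart from the other 3 by Dixon's criterion in any of the 26 named genes that reached an FPKM of 1 in those libraries.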

How the results depend on the processing

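In the fit of drug-resistant against parental cells, the number of the 71 genes called (27) and of all genes called (6220) stayed within 1.5 times under all 17 alternatives, from 18 to 30 and from 4215 to 7060, and 18 of the 27 calls were kept on leaving out each library wherever they were tested. With the form of library name as a covariate, the calls of ADAM10, ADAM28, ADAMTS13, MMP24 and MMP24-AS1-EDEM2 were also lost. Of 25 calls in the PR fit, 9 were kept on leaving out each library. In that fit an FPKM of at least 1 in 2 libraries as the filter left 13 of the 71 genes and 2742 of all genes called in place of 25 and 5455, and limma left 13 and 3026 (pseudocount 1) or 13 and 2773 (pseudocount 0.1), all on 27 of the genes instead of 54. Leaving out a replicate gave between 9 and 29 of the 71 genes and between 950 and 6661 of all genes.

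In the TS fit, 35 genes were called in all, and none of the 71. DESeq2 gave 537 and 6, all 10 libraries in 1 fit 555 and 10, H460 libraries alone (added after seeing the data, with 1 TS library) 331 and 3, the FPKM filter 19 and limma with pseudocount 0.1 19 of all genes. Leaving out a replicate gave between 6 (without parental replicate 2) and 35 of all genes and 0 of the 71. The cause was not tested. With a pseudocount of 0.1 in the comparison of single libraries, 20, 27, 21, 10 and 20 of the 71 genes were past 2-fold in CR, PR, DR, H460 TS and A549 TS cells, in place of 11, 11, 8, 5 and 12, since low values then weigh more.

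No named gene that was called in the fit as reported or the alternative changed sign, and some values of genes called in neither did (20, 25 and 37 in the drug-resistant, PR and TS fits). Replicate numbers are shared by PR and parental libraries, but the correlation of their differences between replicates 2 and 1 was 0.0787 over 19430 genes from 2 pairs, so the numbers were not taken to pair the samples. With the replicate block 27 of the 71 genes and 6775 of all genes were called in the PR fit, against 29 and 6661 in the same 4 libraries without the block. Few libraries limited the precision, as did, for genes such as MMP9 and TIMP3, counts under 100.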
